A study of Gallus gallus with 6 samples.

Results

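The genes described here were expressed in the chicken neural tube with or without activated MEK1, at about the same level in both, and were at least 2-fold higher when HOXB8 was added to activated MEK1. They number 99 of the 17108 genes in the count table. They were chosen on the mean CPM (counts of a gene per 1000000 counts of its library) of each condition, with 0.5 CPM added before ratios were taken. A member had at least 2 CPM in pCIG and in MEK1ca, a ratio of MEK1ca to pCIG from 0.8 to 1.25, ratios of MEK1ca + HOXB8 to MEK1ca and to pCIG of at least 2, and both MEK1ca + HOXB8 libraries above all 4 others. Since these values chose the members, they are given below as a description, without a test. The smaller of the ratios to MEK1ca and to pCIG is called the smaller ratio, and members are ranked by it.

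All 6 libraries came from trunk neural tubes of chicken embryos electroporated in ovo at about stage HH11. The tubes were dissected 18 h later, and their cells were sorted for GFP, which every vector carried. The control received the empty vector pCIG at 2 µg/µl. The MEK1ca condition received pCIG-MEK1ca, which drives a constitutively active form of the kinase MEK1, at 1 µg/µl, with empty pCIG at 1 µg/µl. The MEK1ca + HOXB8 condition received pCIG-MEK1ca and pCIG-HoxB8 at 1 µg/µl each. The embryos' strain and sex are not given in the sources used here. Each condition had 2 libraries, made from pools of embryos. Where both plasmids were given, the study took cells to carry both, citing earlier work by which co-transfection in this tissue is nearly total. The sort could not check this, since both plasmids carried the same GFP. Libraries with HOXB8 alone were not analysed here, so that the members stand for genes higher with HOXB8 on top of MEK1ca, and not for an effect of HOXB8 without MEK1ca. In such bulk samples, more cells of a type and more RNA per cell cannot be told apart.

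HOX proteins are homeodomain transcription factors that give cells their position along the head-to-tail axis, and they activate or repress their target genes, often together with the PBX and MEIS cofactors. In the developing spinal cord they act on the identity and the differentiation of neurons. MEK1 is the kinase that phosphorylates and so activates ERK1 and ERK2, which carry growth factor signals such as those of FGF to transcription factors in the nucleus, and in the caudal neural tube this signal keeps cells immature.

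The count table gives Ensembl identifiers of the galGal4 genome without gene symbols, and none of its identifiers was found in the annotation table at hand, so that no member can be given a name or a role. The members are described by rank, by position on galGal4 and by their values. For the same reason the transfected genes and the markers of the neural tube were not looked up, and the labels of the libraries were not checked through them.

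Total counts lay between 63637195 and 90460770 per library, and Pearson's r of log2 CPM between the replicates of a condition, taken across genes, which are not independent replicates, was at least 0.989. In MEK1ca replicate 2 the counts of 90.9% of the members were even, while each of the remaining libraries had even counts for 44.4% to 49.5% of them. This held for the library as a whole, with even counts in 86.2% of all genes with a count, where the remaining libraries had 50.1% to 51.7%, and what this does to the values of that library was not tested. Without it 85 genes met the rule, 71 of them among the 99. The labels mark the pCIG and MEK1ca libraries, and not those of MEK1ca + HOXB8, as a re-analysis. A difference in when libraries were made and the addition of HOXB8 cannot be told apart by this design. Over the 10098 genes with at least 2 CPM in pCIG and in MEK1ca, called expressed genes below, the median log2 ratio was 0.06 for MEK1ca + HOXB8 over MEK1ca and 0.04 over pCIG.

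Together the 99 members held little of each library without HOXB8 and more with it. Their CPM added up to 963 and 929 in the pCIG libraries, to 852 and 964 in the MEK1ca libraries, and to 2497 and 2437 in the MEK1ca + HOXB8 libraries. This is 0.0852% to 0.0964% of all counts without HOXB8, and 0.244% and 0.250% with it. The median member stood at 4.47 CPM in pCIG (from 2.01 to 132), at 4.50 CPM in MEK1ca (2.06 to 137) and at 13.1 CPM in MEK1ca + HOXB8 (5.03 to 343). Per exonic length, the median member had 3.10 TPM with pCIG, 3.18 TPM with MEK1ca and 8.41 TPM once HOXB8 was added, where TPM are counts divided by exonic length and scaled to the same total in every library. The members were thus rare transcripts, since the median expressed gene had 35.1, 36.3 and 35.4 TPM.

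**Figure D1:**
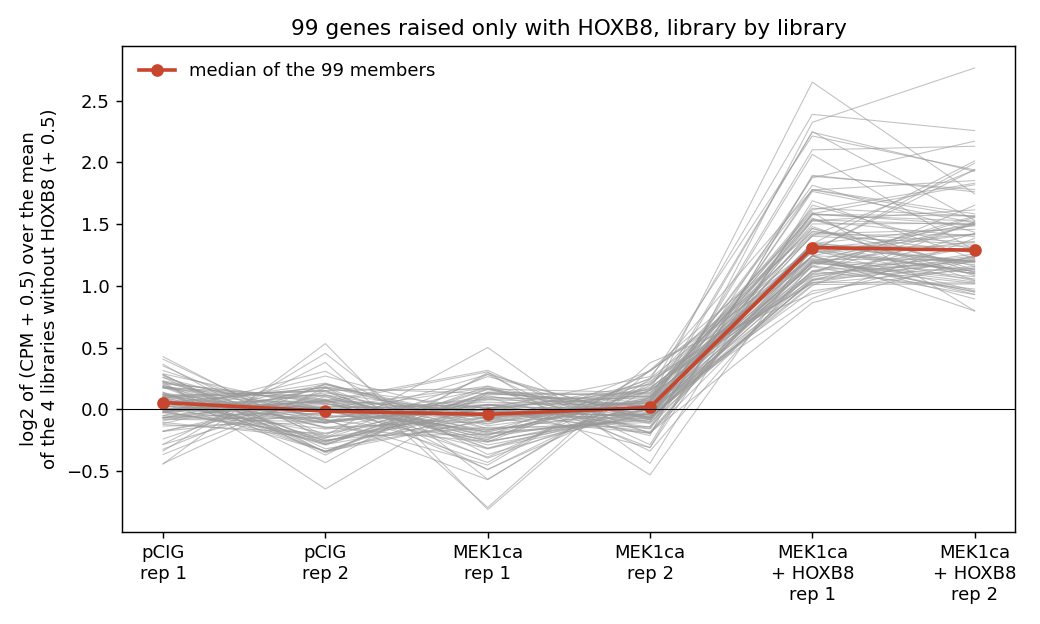
Each grey line is 1 of the 99 members, drawn over the 6 libraries as the log2 of its CPM plus 0.5 over the mean of the 4 libraries without HOXB8 plus 0.5, and the red line is the median. The medians lie from -0.04 to 0.06 in the 4 libraries without HOXB8 and at 1.31 and 1.29 in the MEK1ca + HOXB8 libraries, and the lowest member of the latter lies at 0.797.

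The size of the difference was moderate in most members. The median ratio was 2.50 over MEK1ca (2.02 to 6.12) and 2.51 over pCIG (2.01 to 5.71), and the ratio of MEK1ca to pCIG had a median of 0.979. The smaller ratio had a median of 2.39, and it was under 2.5 in 61 members, from 2.5 to under 3 in 21, and at least 3 in 17, of which 6 reached 4. The lower MEK1ca + HOXB8 library exceeded the highest of the other 4 libraries by a median of 2.07 times, by at least 2 times in 62 members and by 4.82 times at most. That the groups did not overlap was part of the rule. The same was the case in 28.0% of all expressed genes, by any amount, and 1.56% of them met it together with both ratios of at least 2. The condition of no overlap removed no gene that met the others.

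From expressed genes to members, 7634 of the 10098 had a ratio of MEK1ca to pCIG from 0.8 to 1.25, and the 99 members are 1.30% of these. Another 24 genes met the conditions on HOXB8 with a ratio of MEK1ca to pCIG under 0.8, and 35 with a ratio over 1.25. When the rule was mirrored, with ratios of at most 0.5 and both MEK1ca + HOXB8 libraries below all others, 15 genes were found. These lowered genes had a median of 48.8 CPM in the 4 libraries without HOXB8, about the level of the median expressed gene, whereas the members lay far below it. The mirrored rule was counted on CPM of the column sums alone and was not repeated after other scalings. At low levels the 0.5 CPM added makes a ratio of at most 0.5 harder to reach than a ratio of at least 2.

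Members were found mostly at the lower end of expression. Of the 99, 78 (78.8%) had a mean of pCIG and MEK1ca under 10 CPM, against 17.2% of the expressed genes. Between 2 and 5 CPM, 57 of 803 expressed genes (7.10%) were members and none met the mirrored rule. From 5 to 10 CPM, 21 of 931 (2.26%) were members and 1 met the mirrored rule. The share went down with each further range, to 11 of 1290 (0.853%) from 10 to 20 CPM, 7 of 2427 (0.288%) from 20 to 50 CPM, 2 of 2008 (0.0996%) from 50 to 100 CPM and 1 of 2639 (0.0379%) above. From 50 CPM on, the lowered genes outnumbered the members, with 3 and 4 genes against 2 and 1.

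**Figure D2:**
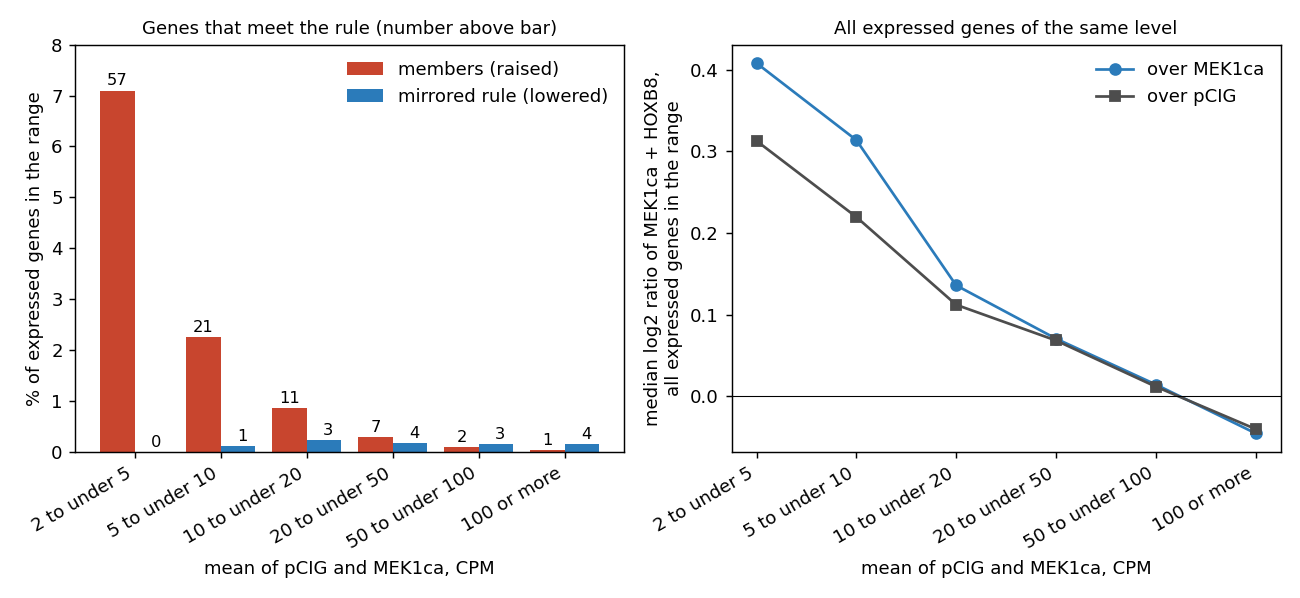
Left, the share of expressed genes in each range of CPM (mean of pCIG and MEK1ca) that are members (red) or that meet the mirrored rule (blue), with their number above the bar. Right, the median log2 ratio of MEK1ca + HOXB8 over MEK1ca or pCIG of all expressed genes in the same ranges, which goes from 0.41 and 0.31 at 2 to under 5 CPM to -0.05 and -0.04 at 100 CPM or more.

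The rare genes as a whole were also higher in the MEK1ca + HOXB8 libraries, members or not. At 2 to under 5 CPM the median log2 ratio of all expressed genes was 0.41 over MEK1ca and 0.31 over pCIG, at 5 to under 10 CPM it was 0.31 and 0.22, and at 100 CPM or more it was -0.05 and -0.04. The members' own median log2 ratio was 1.32 over MEK1ca and 1.33 over pCIG. A cyclic loess curve was used to take out this trend with abundance, an alternative chosen after seeing the data. After it 55 genes met the rule, of which 48 were among the 99. All 99 kept both MEK1ca + HOXB8 libraries above all others, with a smaller ratio of at least 1.57. The rule had chosen the 99 for this separation and for their ratios, so that nothing is read from its being kept. The part of this trend in the choice of the members beyond these values was not tested. The pCIG and MEK1ca means that set the ranges of level are also the denominators of the ratios. The part of this in the trend was not tested either.

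**Figure D3:**
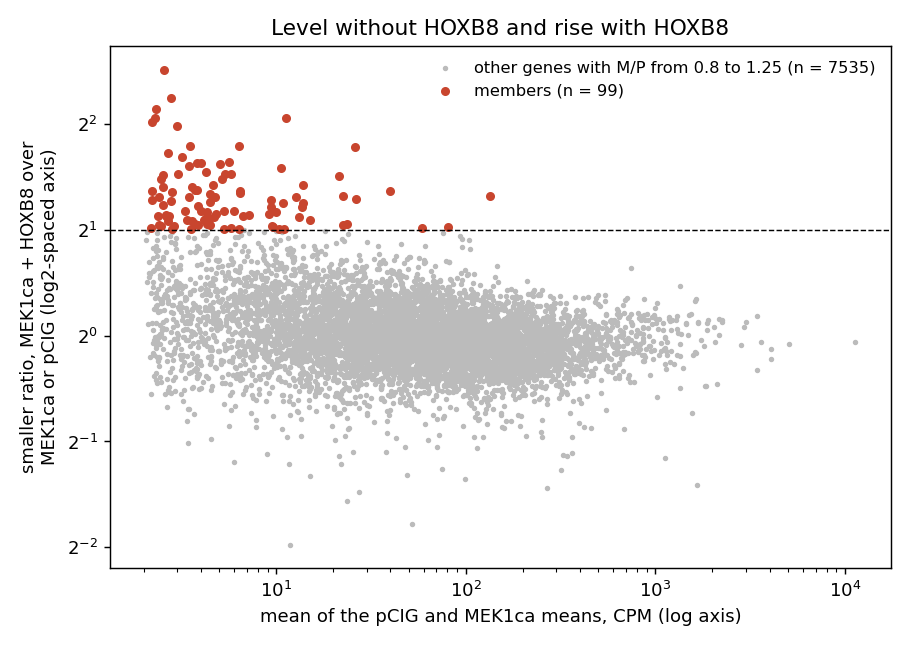
Each point is an expressed gene with a ratio of MEK1ca to pCIG from 0.8 to 1.25, with its mean level without HOXB8 on the horizontal axis and its smaller ratio on the vertical axis (both log axes), the 99 members in red. The dashed line is the ratio of 2, and members crowd to the left, where 78 of them lie under 10 CPM.

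The largest smaller ratio was that of ENSGALG00000001111 (chromosome 18, 1043607 to 1208388, plus strand), a gene of 60 exon segments and 12393 exonic bases. Its level was 3.06 and 2.24 CPM in the pCIG libraries, 2.75 and 2.13 CPM in the MEK1ca libraries, and 14.8 and 20.2 CPM in the MEK1ca + HOXB8 libraries. The mean thus went from 2.65 ± 0.584 CPM (SD, n = 2) in pCIG and 2.44 ± 0.438 CPM in MEK1ca to 17.5 ± 3.85 CPM, a ratio of 6.12 over MEK1ca and 5.71 over pCIG. Being so long, it was low per length, with 2.71 ± 0.663 TPM (SD, n = 2) in MEK1ca + HOXB8, rank 95 of the 99 members on that scale. The lower of its MEK1ca + HOXB8 libraries was 4.82 times the highest of the others, the widest gap of all members.

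The member ranked 2 (chromosome 14, 1146804 to 1181494, minus strand, 14 exon segments) had 2.61 and 2.57 CPM in pCIG, 2.80 and 3.17 CPM in MEK1ca, and 16.7 and 15.2 CPM in MEK1ca + HOXB8. Its replicates were close in every condition, and the ratios were 4.73 over MEK1ca and 5.33 over pCIG. The member ranked 3 (chromosome 1, 121292944 to 121316437, plus strand, 6 exon segments) had 2.55 and 2.64 CPM in pCIG, 1.65 and 2.47 CPM in MEK1ca, and 17.3 and 8.98 CPM in MEK1ca + HOXB8. Here the MEK1ca + HOXB8 replicates stood 1.92 times apart, more than in any other member, and still the lower one was 3.40 times the highest library without HOXB8.

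The member ranked 4 (chromosome 7, 4752831 to 4805577, plus strand) was one of 2 among the first 12 with at least 10 CPM in pCIG and in MEK1ca. It had 11.4 and 10.5 CPM in pCIG, 11.6 and 11.7 CPM in MEK1ca, and 55.4 and 44.3 CPM in MEK1ca + HOXB8. With 44 exon segments and 10033 exonic bases it was also a gene of great exonic length, and its ratios were 4.15 and 4.40. The other was the member ranked 10 (chromosome 2, 100033709 to 100101435, plus strand, 21 exon segments), with 25.4 and 32.2 CPM in pCIG, 20.004 and 26.0 CPM in MEK1ca, and 125 and 75.8 CPM in MEK1ca + HOXB8. Its mean with HOXB8, 100.5 ± 34.8 CPM (SD, n = 2), had a wide spread, and its ratio of MEK1ca to pCIG, 0.802, lay near the lower bound of the rule.

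The members ranked 5, 6 and 7 had about 2 to 4 CPM without HOXB8. Rank 5 (chromosome 4, 1927710 to 1944396, plus strand, 14 exon segments) had 2.55 and 1.80 CPM in pCIG, 2.69 and 2.16 CPM in MEK1ca, and 11.5 and 11.8 CPM in MEK1ca + HOXB8. Rank 6 (chromosome 8, 24731782 to 24747335, minus strand, 12 exon segments) had 2.74 and 1.63 CPM in pCIG, 2.42 and 2.03 CPM in MEK1ca, and 9.43 and 11.7 CPM in MEK1ca + HOXB8. Rank 7 (chromosome 8, 23451383 to 23477433, plus strand, 12 exon segments) had 3.68 and 2.81 CPM in pCIG, 1.85 and 3.64 CPM in MEK1ca, and 15.7 and 12.9 CPM in MEK1ca + HOXB8. In each of them the pCIG and MEK1ca libraries overlapped, and the ratios over MEK1ca were 4.15, 4.06 and 4.56.

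Of the next 4 shown, rank 8 (chromosome 2, 31779228 to 31825127, minus strand, 22 exon segments) had 6.69 and 6.46 CPM in pCIG, 7.35 and 5.07 CPM in MEK1ca, and 25.2 and 22.9 CPM in MEK1ca + HOXB8. Rank 9 (chromosome 20, 2604621 to 2655988, minus strand, 7 exon segments) had 3.04 and 3.69 CPM in pCIG, 4.48 and 2.78 CPM in MEK1ca, and 14.3 and 13.2 CPM in MEK1ca + HOXB8. In both, the ratio between replicates was larger in MEK1ca than in MEK1ca + HOXB8. Rank 11 (chromosome 8, 23804849 to 23900621, minus strand, 14 exon segments) had 1.84 and 3.09 CPM in pCIG, 2.97 and 2.81 CPM in MEK1ca, and 10.4 and 10.98 CPM in MEK1ca + HOXB8. Rank 12 (chromosome 5, 9179364 to 9220087, plus strand, 20 exon segments) had 3.69 and 2.83 CPM in pCIG, 2.94 and 3.27 CPM in MEK1ca, and 8.82 and 14.4 CPM in MEK1ca + HOXB8. Over these first 12 members the lower MEK1ca + HOXB8 library was 2.35 to 4.82 times the highest of the others, and 9 of the 12 were under 4 CPM in pCIG and in MEK1ca.

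**Figure D4:**
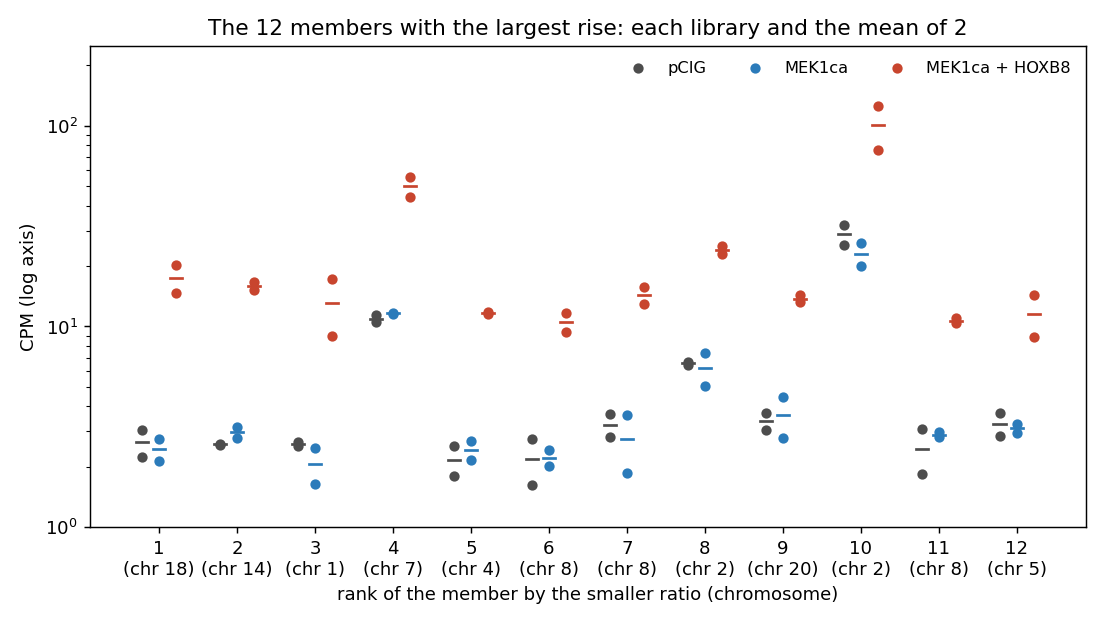
The 12 members with the largest smaller ratio, with the CPM of each library as a point and the mean of the 2 libraries of a condition as a short line, on a log axis. The pCIG and MEK1ca libraries lie side by side in every member, and both MEK1ca + HOXB8 libraries lie above them by at least 2.35 times.

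In MEK1ca + HOXB8, 9 members reached 50 CPM and 5 reached 100 CPM. The most abundant was ENSGALG00000009641 (chromosome 2, 23702024 to 23740814, 52 exon segments, 4872 exonic bases), ranked 39, with 137 and 127 CPM in pCIG, 114 and 160 CPM in MEK1ca, and 325 and 360 CPM in MEK1ca + HOXB8. It was the 1 member above 100 CPM without HOXB8, and its ratio was 2.50 over MEK1ca. Its level per length in pCIG was 53.2 ± 3.48 TPM (SD, n = 2). In MEK1ca this level was 56.4 ± 13.3 TPM, and with HOXB8 added it was 134.6 ± 13.2 TPM, and the means without HOXB8 differed by less than the spread between the MEK1ca replicates.

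Close to it per length was the member ranked 35 (chromosome 27, 3652538 to 3655356), a short gene of 2 exon segments and 1639 exonic bases. It had 48.8 and 39.9 CPM in pCIG, 31.8 and 38.9 CPM in MEK1ca, and 116.5 and 113 CPM in MEK1ca + HOXB8, where the replicates were nearly alike. On the TPM scale it stood at 53.1 ± 8.13 (SD, n = 2) with pCIG, at 43.4 ± 5.95 with MEK1ca and at 133.9 ± 0.653 with HOXB8 added. The levels of these most abundant members in MEK1ca + HOXB8, 134.6 and 133.9 TPM, differed by less than the spread between replicates.

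Next in TPM came the member ranked 91 (chromosome 13, 9742538 to 9750247, 6 exon segments), with 58.2 and 61.0 CPM in pCIG, 55.7 and 58.8 CPM in MEK1ca, and 128 and 115 CPM in MEK1ca + HOXB8. The member ranked 24 (chromosome 8, 5614757 to 5623685, 8 exon segments) had 22.04 and 21.8 CPM in pCIG, 21.3 and 20.6 CPM in MEK1ca, and 65.4 and 61.3 CPM in MEK1ca + HOXB8. The member ranked 89 (chromosome 5, 57852900 to 57865697, 20 exon segments) had 85.8 and 89.3 CPM in pCIG, 70.3 and 75.8 CPM in MEK1ca, and 185 and 173 CPM in MEK1ca + HOXB8. In the first and second of these 3 all 4 libraries without HOXB8 were close to each other, while in the last both MEK1ca libraries lay below both pCIG libraries. In TPM with HOXB8 they stood in the order 86.8 ± 3.97, 56.5 ± 1.08 and 49.6 ± 0.968 (SD, n = 2), and each of these steps exceeded the spread between replicates.

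Replicates of the members were about as close as those of all expressed genes from 2 to under 10 CPM, which include 78 of the members. This range is that of the mean of pCIG and MEK1ca, whereas in MEK1ca + HOXB8 the median member stood at 13.1 CPM. The levels were thus not matched in that condition, and a comparison at like levels was not made. The median absolute log2 ratio between replicates over the members was 0.21 for pCIG and 0.19 for each of the other conditions, and over all expressed genes from 2 to under 10 CPM it was 0.21, 0.21 and 0.18. The MEK1ca + HOXB8 replicates were within 1.25 times of each other in 71 members and at least 1.5 times apart in 7, with replicate 1 the higher one in 4 of these 7. Over all members replicate 1 was the higher one in 56.

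Between pCIG and MEK1ca the members had no common direction, within the band that the rule set. The mean was higher in MEK1ca in 43 members and lower in 56. The pCIG and MEK1ca libraries overlapped in 69 members, both MEK1ca libraries were above both pCIG libraries in 12 and below them in 18. In edgeR's quasi-likelihood test, 0 members passed an adjusted p of 0.01 between pCIG and MEK1ca. Of all genes tested, 6.16% were called in either direction. DESeq2 called 0 members at the same threshold, and 1547 of the 13405 genes it tested. At an unadjusted p under 0.05 the number of members was 2 with either tool, and the share of all genes was not computed. The rule on the ratio of MEK1ca to pCIG fixes these low counts.

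Across all genes, 13582 passed the filter on low counts, all 99 members among them, and the same test was made for the conditions with HOXB8. Of the members 92 were called as higher in MEK1ca + HOXB8 than in MEK1ca at an adjusted p of 0.01 or less, where 8.74% of all genes were, and 93 as higher than in pCIG, where 8.91% of all genes were. Both comparisons share the MEK1ca + HOXB8 libraries, and both are the contrasts that chose the members, so that these counts describe the members and support nothing. In 91 members both calls were made, and in 5 neither. With 1 library left out, the numbers of members called moved, and so did the numbers over all genes. Both are given in the last section.

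The members that missed 1 or both calls were rare or had unlike replicates. Low levels were common among all members, of which 78 of 99 lay under 10 CPM, with medians of 4.47 CPM in pCIG and 4.50 CPM in MEK1ca. The part of the level in the missed calls was not tested. The 5 that missed both were those ranked 48, 52, 78, 87 and 95, of which 4 had under 4 CPM in pCIG and in MEK1ca. Rank 48 (chromosome 27, 2822027 to 2826383) had 1.91 and 4.24 CPM in pCIG, 1.37 and 3.58 CPM in MEK1ca, and 8.37 and 7.85 CPM in MEK1ca + HOXB8, with replicate 2 above replicate 1 in both conditions without HOXB8. Rank 95 (chromosome 18, 4454146 to 4465041) had 5.14 and 8.44 CPM in pCIG, 3.46 and 8.42 CPM in MEK1ca, and 12.6 and 15.8 CPM in MEK1ca + HOXB8. It was the 1 member whose lower MEK1ca + HOXB8 library was under 1.5 times the highest of the others.

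At the threshold the members ran on without a break into genes just under it. The last 3 inside had smaller ratios of 2.007, 2.010 and 2.011, and lay on chromosomes 1, 4 and 15. The nearest 3 outside had 1.994, 1.986 and 1.978, and lay on chromosomes 10, 2 and 9. The last one inside (chromosome 1, 83010008 to 83046065) went from means of 11.1 CPM in pCIG and 10.8 CPM in MEK1ca to 22.8 CPM, and the first one outside (chromosome 10, 2107249 to 2114518) from 6.92 and 6.59 CPM to 14.3 CPM.

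By the median, the members were longer genes than the expressed genes as a whole. The median exonic length was 2916 bases in the members and 2416.5 in all expressed genes, and the median span on the genome was 19225 against 15459 bases. Among genes from 2 to under 10 CPM, the 78 members had a median exonic length of 2912.5 bases, a median span of 21020 bases and a median of 12 exon segments, while the other 1656 genes had 1843 bases, 11065.5 bases and 8 segments. The rule was set in CPM, which is not corrected for length, and the part of this in the lengths of the members was not tested.

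**Figure D5:**
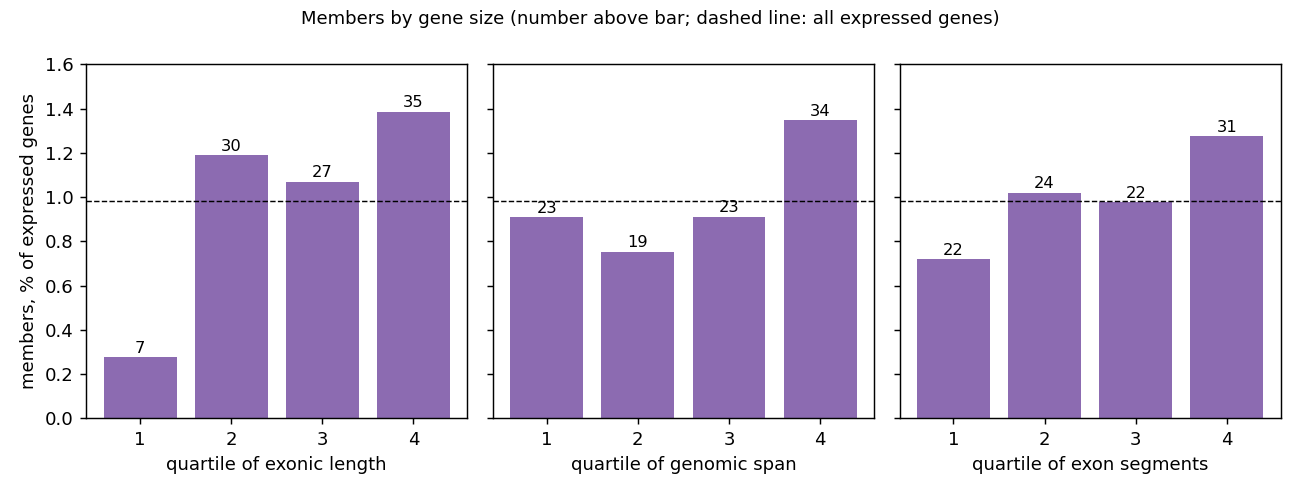
Members as a share of the expressed genes in each quartile of exonic length, genomic span and number of exon segments, with the number of members above each bar and the share over all expressed genes (0.980%) as a dashed line. The shortest quartile of exonic length holds 7 members and the longest 35.

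Over the quartiles of exonic length of all expressed genes, 7, 30, 27 and 35 members were found from the shortest to the longest, which is 0.277%, 1.19%, 1.07% and 1.39% of the genes in each. The expressed genes as a whole went the other way, with a median log2 ratio over MEK1ca of 0.14 in the shortest quartile and of -0.03 in the longest. For the span the numbers of members were 23, 19, 23 and 34. Genes spanning at least 100 kb made up 13 of the members (13.1%) and 7.86% of the expressed genes.

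A group of 12 members (12.1%) had at least 30 exon segments, against 6.27% of the expressed genes. Beside those ranked 1, 4 and 39 above, it held a gene of 80 segments and 13517 exonic bases, ranked 20 (chromosome 18, 10070951 to 10098653). This gene had 5.99 and 4.48 CPM in pCIG, 6.44 and 6.26 CPM in MEK1ca, and 14.9 and 23.7 CPM in MEK1ca + HOXB8. It also held one of 78 segments and 13840 exonic bases, the longest of all members, ranked 71 (chromosome 15, 4855484 to 4908313), with means of 13.2 ± 1.79 CPM (SD, n = 2) in pCIG, 13.2 ± 3.26 CPM in MEK1ca and 29.4 ± 2.81 CPM in MEK1ca + HOXB8. The smaller ratios of the 12 ran from 2.01 to 5.71, over the same range as those of all members. At the other end, 2 members had a single exon segment (2.02%, against 2.59% of the expressed genes). The first of these, ranked 18 (chromosome 1, 120159804 to 120161450, 1647 bases), had 11.2 and 10.3 CPM in pCIG, 9.82 and 11.3 CPM in MEK1ca, and 34.0 and 32.5 CPM in MEK1ca + HOXB8.

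The members were spread over 25 chromosomes. The large chromosomes 1 to 5 held 34 of them (34.3%) and 44.7% of the expressed genes. Chromosome 8 held 8 of its 373 expressed genes (2.14%), chromosome 18 held 5 of 234 (2.14%) and chromosome 20 held 5 of 243 (2.06%), while chromosome 6 held none of 339 and chromosome 4 held 3 of 737 (0.407%). On the Z chromosome 3 of 493 expressed genes were members (0.609%). On chromosome 8, a stretch from 23451383 to 24747335 held the members ranked 6, 7 and 11, among 24 expressed genes with a median log2 ratio over MEK1ca of 0.14. This stretch was chosen after its values were seen.

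Members had another member near them about as often as the other expressed genes had a member near them. A further member lay within 100 kb of 6 members (6.06%), and a member lay within that distance of 4.72% of the other expressed genes. The 6 form 3 pairs. On chromosome 7 the member ranked 17 (7694859 to 7704115) and the member ranked 22 (7716439 to 7883898) lie 12324 bases apart on the minus strand with no gene starting between them. Rank 17 had 4.77 and 2.92 CPM in pCIG, 2.95 and 3.25 CPM in MEK1ca, and 16.1 and 9.19 CPM in MEK1ca + HOXB8. Rank 22 had 5.53 and 6.11 CPM in pCIG, 4.20 and 5.51 CPM in MEK1ca, and 20.04 and 15.3 CPM in MEK1ca + HOXB8. In both genes of this pair MEK1ca + HOXB8 replicate 1 was the higher one. The other pairs lie on chromosome 23, 15148 bases apart (ranks 64 and 57), and on chromosome 18, 79479 bases apart with 5 genes starting between them (ranks 72 and 30). Expressed genes within 100 kb of a member that were not members themselves had a median log2 ratio over MEK1ca of 0.10, and those around other expressed genes 0.09.

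No member overlapped another gene on its own strand, as 596 of the 10098 expressed genes did, and 7 (7.07%) overlapped a gene on the other strand, against 9.74% of the expressed genes. Whether the counting used strand is not given in the sources used here, so that reads of such a pair cannot be assigned with certainty. The partner of the member ranked 13 (chromosome 7, 21638777 to 21666114) was far more abundant than the member, with means of 125 CPM for pCIG, 120 CPM for MEK1ca and 137 CPM for MEK1ca + HOXB8, while the member had 6.01 and 4.52 CPM in pCIG, 6.24 and 5.74 CPM in MEK1ca, and 18.3 and 21.3 CPM in MEK1ca + HOXB8. The partner of rank 20 likewise had 82.7, 78.8 and 83.0 CPM. The partner of rank 80 (chromosome 5, 27396958 to 27470818) had 48.6, 50.8 and 62.9 CPM over an overlap of 121 bases. The ratio over MEK1ca of these 3 partners was 1.14, 1.05 and 1.23. Whether reads of the partners were counted for the members was not tested. The other 4 partners had at most 3.48 CPM in any condition. The one that overlaps the member ranked 65 was higher with HOXB8 too. It had 1.02 CPM in pCIG, 0.655 CPM in MEK1ca and 2.43 CPM in MEK1ca + HOXB8.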

How the data were processed

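RNA-Seq was made from GFP-sorted neural tube cells in 3 conditions with 2 libraries each. Linearly amplified cDNA was sequenced without molecular identifiers. The authors used Subread for alignment to galGal4 and featureCounts for counting, and the deposited table holds raw counts, with exon positions and exonic lengths. Versions, strandedness of the counting and how multiply aligned reads were handled are not given in the sources used here. The authors' tables of their own comparisons hold fold changes, standard errors and p-values, and were not used.

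The rule was applied to CPM of the column sums, and TPM was computed from counts and exonic lengths (Python 3.11.15, pandas 2.3.3). Exon segments are merged exons. Counts of all 6 libraries were fitted in edgeR 4.0.16 (R 4.3.3) with TMM scaling, filterByExpr and the quasi-likelihood test, and p-values were adjusted by Benjamini-Hochberg across the genes tested in each comparison. The fit was tested on simulated data. Alternatives were DESeq2 1.42.0, other scalings, limma's cyclic loess (limma 3.58.1), filters, the replicate number as a term and the omission of each library.

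The members, lists and tests were chosen with earlier results of these data known. The genes to be named were those with a symbol, by fixed ranks or by 18 lists, and 0 identifiers matched the annotation table (assembly GRCg7b), so that lists and promoters were not analysed. Members shown were picked by rank, level, structure or position after their values were seen. Nothing states that the pools of a condition were electroporated on separate days, and the spread may be partly technical. With 2 against 2 libraries the smallest two-sided p of an exact permutation test is 0.3333.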

Additional observations from a re-analysis of the deposited data

How the results depend on the processing

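Leaving out single libraries moved the set of members more than its size, while the scaling moved both. With TMM-scaled library sizes 78 genes met the rule, 76 of them among the 99, and with the size factors of DESeq2 76 did, 73 of them among the 99. A ratio of at least 3 left 17 members, a floor of 5 CPM left 38, and after cyclic loess 55 were found. Leaving out 1 library gave from 85 to 112 members, of which 69 to 89 were among the 99. After each of the 3 rescalings the 99 kept both MEK1ca + HOXB8 libraries above all others, a separation that the rule had chosen them for. The TMM factors lay between 0.964 and 1.05 and the smallest gap of a member was 1.498 times, so that this scaling could not undo it. Over the rescalings and the omissions of 1 library the smaller ratio of a member was at least 1.57.

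Members called as higher by edgeR numbered 59 to 91 over MEK1ca and 44 to 97 over pCIG when 1 library was left out, where a single remaining library of a condition is taken to vary as the rest do. Over all genes, leaving out 1 library gave 1148 to 1953 calls in MEK1ca + HOXB8 versus MEK1ca (2272 with all), 702 to 2158 versus pCIG (2011 with all) and 356 to 880 in MEK1ca versus pCIG (836 with all). The numbers over all genes count calls in either direction, whereas those of the members count only calls as higher. In either direction, DESeq2 called 3376 genes in MEK1ca + HOXB8 versus MEK1ca, 3060 versus pCIG and 1547 in MEK1ca versus pCIG. Scaled by library size alone, 70.5% rather than 52.2% of the genes called versus MEK1ca were higher, and 74.3% rather than 60.2% of those versus pCIG. The causes were not tested.

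Whether replicates of the same number were made together is not given in the sources used here. The differences between replicates had correlations of 0.128, -0.113 and -0.027 between conditions across genes. With a replicate block 98 members were called as higher over MEK1ca and 95 over pCIG, against 92 and 93. Of the 13582 genes tested, 1159 and 1170 were called as higher in these comparisons, against 1187 and 1210. In either direction 2170, 1916 and 921 genes were called in the 3 comparisons.

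Counts behind a member were at least 87 in any library. The reads come from amplified cDNA without molecular identifiers, so that they are not independent molecules.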
